A study of Mus musculus with 12 samples.

Results

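The genes described here are *Cdx1*, *Cdx2*, *Cdx4*, *Hand1*, *Hand2*, *Msx1*, *Msx2*, *Bmp4*, *Kdr* and *Isl1*, a set of 10 of the 22911 genes in the deposited tables. They were chosen by name, with the group means and the ratios of mutant to control already known. Their levels and differences are therefore given as a description, without a test. RNA-Seq was performed on mouse epiblast-like cells (EpiLCs), which model the epiblast shortly after implantation. Embryonic stem cell (ESC) lines were cultured for 48 h with 10 ng/ml FGF2 and 20 ng/ml activin A on fibronectin, and each genotype has 3 libraries, which the labels tie to 3 independent ESC lines. The groups were female *Kdm5c* fl/fl (fWT), female *Kdm5c* Δ/Δ (fKO), male *Kdm5c* flY (mWT) and male *Kdm5c* ΔY (mKO). The labels call the gene *Smcx* and give the strain as C57BL/6J, whereas the methods describe the floxed strain as made on a mixed genetic background. The controls fWT and mWT carry the floxed, unrecombined allele, and the Δ allele lacks exons 11 and 12, which encode its JmjC demethylase domain. Control and mutant cells came from separate ESC lines.

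Caudal-type homeobox genes (Cdx) encode transcription factors that act in the posterior embryo upstream of Hox genes, and *Cdx2* also acts in the trophectoderm. The basic helix-loop-helix factors HAND1 and HAND2 act in lateral and extraembryonic mesoderm and in the heart, and *Hand1* is also required in trophoblast giant cells. The homeobox genes *Msx1* and *Msx2* are targets of BMP signalling, BMP4 is the ligand that extraembryonic ectoderm and mesoderm present to the posterior epiblast, *Kdr* encodes the VEGF receptor of mesodermal and endothelial progenitors, and *Isl1* marks cardiac progenitors. In the embryo these genes mark cells that leave the epiblast for the posterior and extraembryonic mesoderm or the amnion. Some of them, as given above, also act in the separate trophoblast lineage.

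Promoter sequences were taken from RefSeq (GRCm38.p6 table), which held 8 of the 10 genes and not *Cdx1* and *Hand1*. The 250 bases before the start site are shown for *Cdx2*, *Msx1* and *Msx2*, whose levels in mutant males went in both directions, and each run was found once on its chromosome in mm9. The CCAAT box, searched as CCAAT on both strands, is in capitals and reads ATTGG where it lies on the reverse strand. The windows are on the minus strand at chr5:148118826-148119075 for *Cdx2*, chr5:38215825-38216074 for *Msx1* and chr13:53568150-53568399 for *Msx2*. For *Msx2* RefSeq puts the start at 53568149, whereas the mm9 gene annotation used below starts the gene at 53568443. The *Msx2* window thus lies inside the gene as placed below.
*Cdx2*: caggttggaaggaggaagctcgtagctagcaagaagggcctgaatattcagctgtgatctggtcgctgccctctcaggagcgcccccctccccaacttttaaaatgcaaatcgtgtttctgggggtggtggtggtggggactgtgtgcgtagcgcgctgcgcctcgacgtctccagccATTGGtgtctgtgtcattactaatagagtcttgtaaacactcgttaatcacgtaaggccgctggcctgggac
*Msx1*: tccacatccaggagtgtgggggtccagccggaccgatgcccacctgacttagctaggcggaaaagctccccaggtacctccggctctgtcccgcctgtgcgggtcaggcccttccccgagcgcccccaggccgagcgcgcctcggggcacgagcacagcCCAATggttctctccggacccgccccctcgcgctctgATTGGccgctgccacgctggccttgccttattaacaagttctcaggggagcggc
*Msx2*: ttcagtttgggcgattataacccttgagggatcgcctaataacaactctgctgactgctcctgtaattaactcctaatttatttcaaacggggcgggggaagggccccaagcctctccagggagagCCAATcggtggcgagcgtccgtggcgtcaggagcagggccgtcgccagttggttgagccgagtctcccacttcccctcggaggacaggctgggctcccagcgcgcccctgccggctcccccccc

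Over the whole window of 300 bases (250 before the start and 50 after it), 6 of the 8 promoters held a CCAAT box, those of *Cdx2*, *Cdx4*, *Hand2*, *Msx1*, *Msx2* and *Isl1*, against 37.4% of 32851 promoters. Each of the 8 held more CpG dinucleotides than the median promoter, between 8 for *Cdx4* and 37 for *Isl1* against 7. The core of TCF/LEF sites (CTTTGA), a CDX core (TTTATG) and the TATA box (TATAAA) were in none of the 8, and 16.0%, 11.9% and 13.6% of all promoters held them. A GC-rich SMAD1/5 element (GGCGCC, 11.9% of promoters) was in those of *Hand2* and *Isl1*, an E-box (CACGTG, 7.15%) in that of *Bmp4*, and a second type of E-box (CATCTG, 17.2%) in those of *Hand2* and *Kdr*. All motifs were searched on both strands. These are matches of letters and not sites of binding.

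The deposited values are mean normalised counts of a group, that is, averages over 3 libraries of the reads scaled by library size factors. Reads per library were solved back from these means, and the libraries of a group are named A, B and C by falling size factor, since they cannot be tied to ESC lines. Recovered depth ranged from 5516216 to 11092731 reads. The 2 tables were normalised separately, so levels set side by side across the sexes rest on separate scales.

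Libraries within the male groups differed more than those of the females. Over genes with at least 20 reads in a pair of libraries, the chi-square per gene was 2.31 between mWT A and C but 17.8 and 17.4 against mWT B. It was 2.61 between mKO B and C but 29.5 and 26.9 against mKO A, while pairs of female libraries gave 1.97 to 4.55. A set of 1459 olfactory and vomeronasal receptor genes, which epiblast cells do not use, had a mean normalised count per gene of 8.31 in mWT A and 9.04 in mWT C, against 1.23 to 2.43 in the other 10 libraries. All 8 EpiLC markers had reads in all 12 libraries, from a lowest value of 17.2 normalised counts for *Foxd3* to a highest value of 7264 for *Dnmt3b*, both in mWT. *Kdm5c* itself, counted over the whole gene and so also outside the deleted exons, was at 2360 ± 60.7 in fWT, 1453 ± 49.7 in fKO, 2226 ± 133 in mWT and 1938 ± 39.7 in mKO (normalised counts, mean ± SD, n = 3).

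The plot shows that the sums of most of the 5 marker lists differed between mutant and control in one sex or the other. Such sums weigh abundant genes most. Over all genes in males, 12.6% were above and 13.8% below in every mKO library against every mWT library. In males, 7 of 12 fibroblast markers were higher in every mKO library than in every mWT library and 0 were lower, with sums of 5312 to 5759 against 1138 to 1362 normalised counts. The 7 were *Col1a1*, *Col1a2*, *Col3a1*, *Postn*, *Pdgfrb*, *Loxl1* and *Tnc*, with *Postn* at 82.8 to 117 against 4.14 to 18.7, and *Dcn* and *Lum* were at most at 8.78 and 3.99 in any of the 12 libraries. Naive pluripotency markers were higher for 7 of 10 in mKO (sums of 7733 to 9773 against 4079 to 5102). EpiLC markers were lower for 4 of 8 and higher for 0, with *Otx2* at 368 to 430 in mKO against 1140 to 1662 in mWT. Of 12 endoderm markers 0 were higher and 3 lower in mKO, and their sum was 960 in mKO A, 6703 in B and 6824 in C against 2998 to 5517 in mWT. Neural sums overlapped in males (978 to 2237 in mKO).

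In females, all 12 endoderm markers were higher in fKO, with sums of 6805 to 7020 against 554 to 617. Over all genes in females, 27.5% were above and 27.2% below in every fKO library against every fWT library. Naive markers were higher for 8 of 10 and lower for 1 (4814 to 4984 against 3892 to 4082). The lower one was *Nanog*, at 1465 to 1547 in fKO against 2742 to 2892 in fWT. EpiLC markers were higher for 5 of 8 and lower for 2 (19346 to 19999 against 11280 to 11634). The lower ones were *Pou3f1* and *Pou5f1*, and *Fgf5* overlapped. Fibroblast markers were lower for 5 of 12 and higher for 2 (1460 to 1615 against 2905 to 2956). Neural markers were lower for 2 of 8 and higher for 1 (1797 to 1854 against 2375 to 2618), shares no larger than those over all genes. The part of these markers in the results below was not tested, and in such bulk samples fewer cells of a type cannot be told from less RNA per cell.

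**Figure D1:**
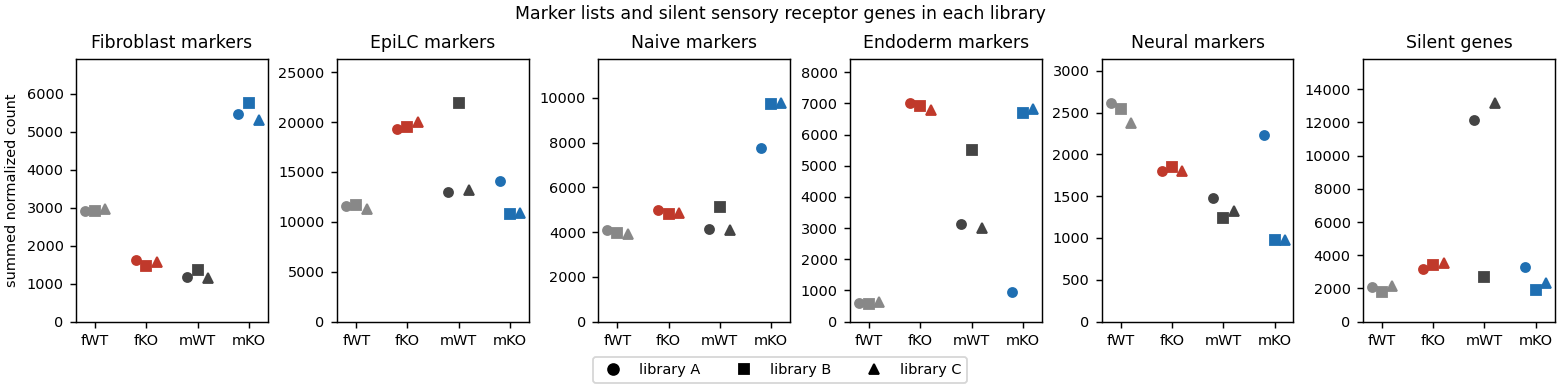
Summed normalised counts (linear axis from 0) of 5 marker lists and of the silent sensory receptor genes, 1 panel a list, in the 3 libraries of each group. Endoderm markers sit at 6805 to 7020 in fKO against 554 to 617 in fWT, and the silent genes are highest in mWT A and C.

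Among the 10 genes, *Hand1* had the highest level in mutant males and *Cdx1* the largest difference from the controls there, and both were lowest in control males. In males, all 3 mKO libraries were above all 3 mWT libraries for *Cdx1*, *Cdx2*, *Hand1* and *Msx2* (4 of 10), below them for *Kdr* (1 of 10), and overlapping for the other 5. Over all 21900 genes with a read in males, 12.6% were above and 13.8% below in the same sense. In females, fKO was above fWT for *Hand1*, *Kdr* and *Isl1* (3 of 10), below for *Hand2* and *Msx1* (2 of 10) and overlapping for 5, against 27.5% and 27.2% of 19583 genes. Because the genes were picked with these contrasts known, nothing is read from these counts. The median log2 difference of the 10 genes was 0.61 in males, where that of all genes was -0.16, and -0.12 in females, where that of all genes was 0.0037. The male median fell to 0.16 without mKO A, and the female median lay between -0.27 and 0.08 with single libraries left out.

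**Figure D2:**
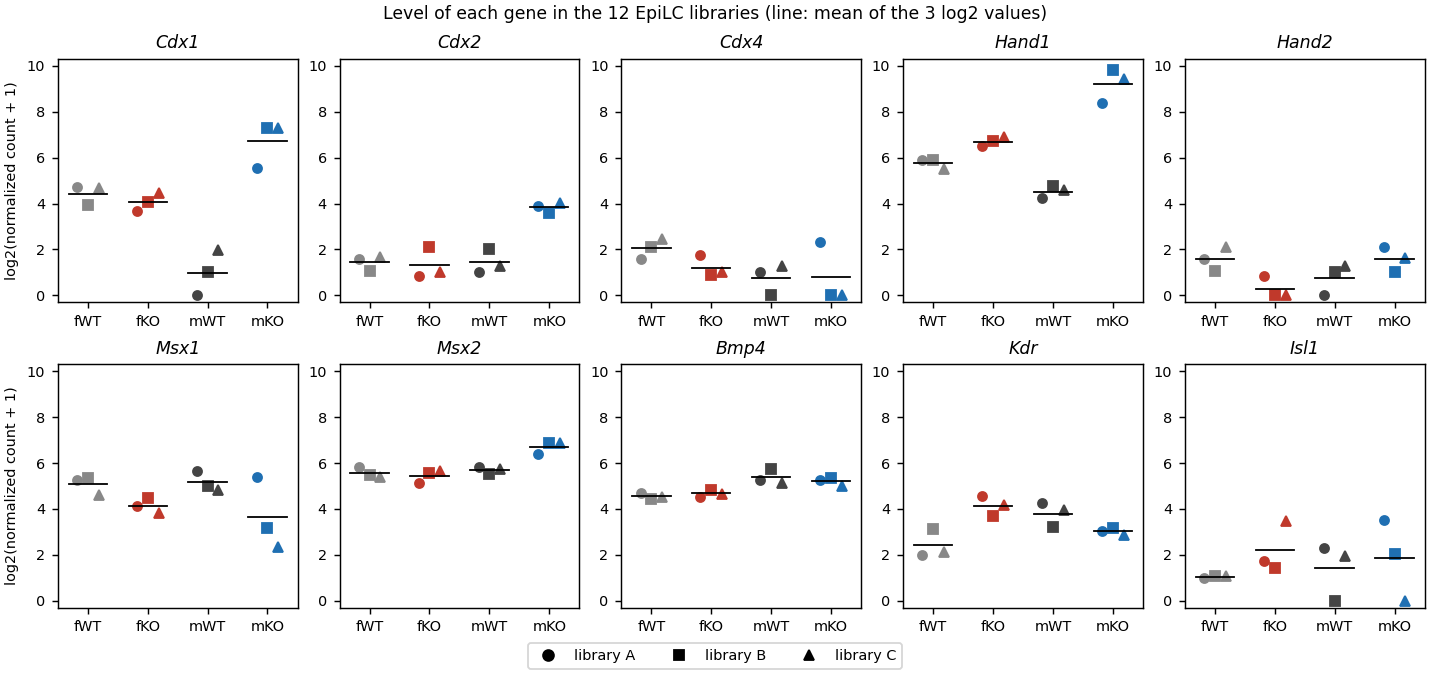
Level of each of the 10 genes as log2(normalised count + 1) in the 12 libraries, with points for libraries A, B and C of each group and a line at the mean of the 3 log2 values. *Cdx1* and *Hand1* are at their highest in the 3 mKO libraries and at their lowest in the 3 mWT libraries, and the panels of *Cdx4*, *Hand2* and *Isl1* hold few reads.

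*Cdx1*, a caudal homeobox gene that responds to Wnt signals and retinoic acid, lies at chromosome 18:61178516-61195853 (mm9, minus strand). It had 56, 153 and 152 reads in mKO A, B and C but 0, 1 and 2 in mWT, where a count of 0 allows up to 3 reads. The normalised counts were 45.4, 155 and 157 in mKO (119 ± 63.9, SD, n = 3) and 1.30 ± 1.46 in mWT. The ratio of mutant to control reads per size factor was 101, with an exact 95% interval of 34.2 to 491 that covers counting error only, and the log2 difference was 5.72 ± 0.81 (SE). The differences with mKO A or with both mWT A and C left out were 6.30 and 5.69. In females the gene had 25, 13 and 22 reads in fWT and 15, 19 and 21 in fKO, groups that overlapped, with means of 21.3 ± 6.09 and 16.3 ± 4.74 normalised counts and a log2 difference of -0.36 ± 0.34. Among controls, every fWT library was above every mWT library, and among mutants the order was the opposite.

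*Cdx2*, known for the trophectoderm and the intestine as well as the tail bud, lies at chromosome 5:148112381-148118846 (minus strand). It had 17, 11 and 15 reads in mKO A, B and C and 1, 3 and 1 in mWT. All mKO libraries were thus above mWT, with 13.5 ± 2.2 against 1.85 ± 1.11 normalised counts. The ratio was 7.20 (2.86 to 23.3) and the log2 difference 2.41 ± 0.34, which was 1.81 without mWT A and C. Unlike *Cdx1*, the 3 mKO libraries stood close together. In females the gene had at most 4 reads in a library, with means of 1.78 ± 0.598 in fWT and 1.72 ± 1.43 in fKO.

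*Cdx4* is the X-linked member of the family, at chromosome X:100516737-100525931 on the plus strand, and its end lies 129.8 kb from the nearer end of the *Xist* gene in mm9. It had 2, 3 and 4 reads in fWT, 3, 1 and 1 in fKO, 1, 0 and 1 in mWT and 5, 0 and 0 in mKO. All of the reads in mutant males were in library A, the one in which *Cdx1* was lowest. The log2 difference was -0.84 ± 0.37 in females, where the groups overlapped, and 0.02 ± 0.87 in males, and no change was detectable at this depth. The male read ratio of 2.09 had an interval of 0.343 to 22.0, which also holds the ratio of *Cdx2*.

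*Hand1* lies at chromosome 11:57642207-57646320 on the minus strand. It had 410, 890 and 663 reads in mKO A, B and C against 18, 25 and 16 in mWT. In normalised counts these were 333, 902 and 686 against 17.9, 25.8 and 23.0. The means were 640 ± 287 and 22.3 ± 4.00, a fold of 28.8 between the means, and the read ratio was 27.8 (21.5 to 36.7). The log2 difference was 4.68 ± 0.45, and it was 5.10 without mKO A, 4.79 without mWT B and 4.46 without mWT A and C. In females the levels were 58.3, 58.2 and 44.5 in fWT and 90.1, 104 and 118 in fKO, so that the mutant libraries were also above the controls. The female ratio was 1.91 (1.57 to 2.33) and the log2 difference 0.94 ± 0.17. *Hand1* was the only one of the 10 genes whose mutant libraries lay above the controls in both sexes, a direction that the choice of genes already knew.

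*Hand2*, the second HAND factor, lies at chromosome 8:59799780-59803314 on the plus strand and was close to the limit of detection. It had 2, 1 and 3 reads in fWT, 1, 0 and 0 in fKO, 0, 1 and 1 in mWT and 4, 1 and 2 in mKO. The fKO libraries were below fWT, with a read ratio of 0.135 whose interval ran from 0.0029 to 1.12. In males the groups overlapped, with a ratio of 2.93 (0.558 to 28.9). At most 4 reads in a library stood behind any of these values, so the large difference of *Hand1* in males had no measurable counterpart in *Hand2*.

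*Msx1* and *Msx2*, homeobox genes that BMP signalling induces in many tissues, went apart in mutant males. *Msx2*, at chromosome 13:53562250-53568443 on the minus strand, had normalised counts of 83.6, 116 and 115 in mKO against 51 ± 5.21 in mWT. All 3 mKO libraries were above the controls, with a log2 difference of 1.01 ± 0.17 and a read ratio of 2.02 (1.65 to 2.48). In females *Msx2* was at 47.1 ± 8.09 in fWT and 43.4 ± 7.92 in fKO, and the libraries overlapped. *Msx1*, at chromosome 5:38211724-38215822 on the minus strand, had normalised counts of 40.6, 8.11 and 4.14 in mKO A, B and C against 48.9, 31.0 and 27.3 in mWT. Library A of the mutant males lay among the controls while B and C were below all of them, so the log2 difference of -1.51 ± 0.93 moved to -2.38 without mKO A. In females *Msx1* was at 37.2, 39.5 and 23.3 in fWT and at 16.5, 21.0 and 13.1 in fKO, with every mutant library below every control and a log2 difference of -0.93 ± 0.30.

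*Bmp4*, the ligand of the set, lies at chromosome 14:47003195-47010344 on the minus strand. It was at 22.7 ± 2.19 in fWT, 24.7 ± 2.94 in fKO, 41.7 ± 9.70 in mWT and 36.0 ± 4.41 in mKO, and mutant and control overlapped in both sexes. The read ratio was 1.08 (0.771 to 1.52) in females and 0.852 (0.651 to 1.11) in males. Levels were higher in the male than in the female libraries for controls and for mutants alike. The gene shares its locus with *Gm15217* on the opposite strand, and as the strand setting of the counting is not given in the sources used here, reads of the 2 genes may not be told apart.

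*Kdr*, the VEGF receptor, lies at chromosome 5:76328852-76374483 on the minus strand and was the member whose groups separated in opposite directions. It had 3, 7 and 3 reads in fWT and 29, 14 and 17 in fKO, with means of 4.68 ± 2.61 and 17.2 ± 5.47 normalised counts. The female ratio was 3.75 (2.03 to 7.44) and the log2 difference 1.73 ± 0.44. In males it had 18, 8 and 10 reads in mWT and 9, 8 and 6 in mKO, with means of 13.5 ± 4.89 and 7.21 ± 0.955. The male ratio was 0.535 (0.303 to 0.927) and the log2 difference -0.77 ± 0.32. The lowest mWT library (B, 8.27) and the highest mKO library (B, 8.11) were almost level, and without mWT A and C, the libraries with the most reads on silent genes, the difference was -0.18. The female and male differences were not tested against each other.

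*Isl1*, a LIM homeobox gene, lies at chromosome 13:117088478-117099896 on the minus strand. It had 1 read in each fWT library and 3, 2 and 10 in fKO, so that fKO was above fWT with a ratio of 4.06 (1.15 to 21.9), and fKO C held 10 of the 15 mutant reads. In males it had 4, 0 and 2 reads in mWT and 13, 3 and 0 in mKO, and the groups overlapped. As for *Msx1* and *Cdx4*, mKO A held the highest value of the mutant males.

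**Figure D3:**
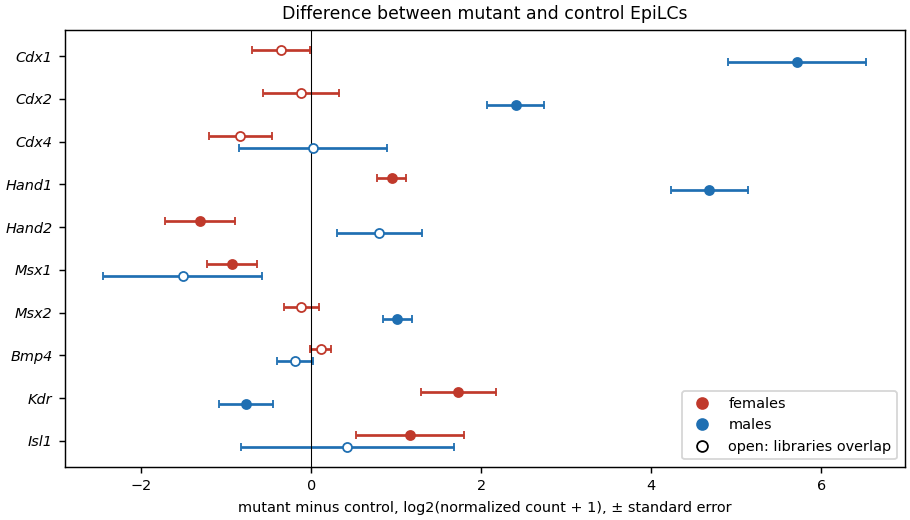
Difference of mutant minus control on the log2(normalised count + 1) scale with its standard error (3 libraries a group) for each of the 10 genes, in females and in males. Filled points mark genes whose 3 mutant libraries lie all above or all below the 3 controls, and those of *Cdx1* (5.72) and *Hand1* (4.68) in males lie farthest from 0.

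Levels were compared between the genes per kilobase of exon. In fWT the order was *Hand1* (26.9 normalised counts per kb), *Msx2* (19.2), *Msx1* (17.2), *Cdx1* (12.2) and *Bmp4* (10.2), neighbours whose libraries overlapped, and the other 5 genes were at 1.66 or less. In fKO *Hand1* (52.1) and *Msx2* (17.7) each stood apart from the next gene. In mWT *Msx2* (20.8), *Bmp4* (18.8) and *Msx1* (18.5) overlapped in this order, and *Hand1* (11.1) stood below them and above the remaining 6. In mKO *Hand1* (321 per kb) was separate from *Cdx1* (68.1), whereas *Cdx1* and *Msx2* (42.6) overlapped. *Hand1* in mKO was above 90.8% of genes with a known exon length, against 45.4% in mWT.

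The genes whose pattern was most like that of each member were taken over the 12 libraries, among the 14132 genes that averaged 10 or more normalised counts. These values are descriptions over libraries that share genotype, table and size factor, and males carry most of the spread. For *Hand1* they were *Arl6ip1* and *Rhox9* (Pearson r = 0.983 for both). *Rhox9*, a homeobox gene of the X-linked Rhox cluster, was at 76.6, 184, 46.1 and 1169 normalised counts in fWT, fKO, mWT and mKO. For *Cdx1* they were *Cdcp1* (0.968) and *Gpr20* (0.962), for *Msx1* *Foxr2* (0.976) and *Xkr4* (0.964), and for *Msx2* *Anks1* (0.954) and *Klhl5* (0.953). For *Bmp4* they were *Ppp2r5c* (0.949) and *Chmp4c* (0.934), and for *Kdr* *Cr1l* (0.948) and *Tspan2* (0.922). Among the members themselves r was 0.91 for *Cdx1* with *Hand1*, 0.78 for *Hand1* with *Msx2* and -0.73 for *Hand1* with *Msx1*.

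The comparison with other genes of the same pathways used 5 lists that do not hold the 10 genes. The lists were written from general knowledge but with earlier results of these data known, so their counts are no independent support. Their genes were tested with limma over all genes of a sex, at an adjusted p of 0.05. Over all genes, 25.4% were called higher and 24.6% lower in females, and 4.19% and 3.58% in males, so calls are frequent in any list of females. The p-values measure the spread between libraries of these ESC lines. A fit of males without mWT A and C, the libraries with the most reads on silent genes, was run but leaves 1 control. It therefore cannot check the male calls, and it is described in the last section. The list of amnion, surface ectoderm and trophoblast genes was the one with the most calls in males, 15 higher and 1 lower of 34, with a median log2 difference of 0.82 against -0.16 over all genes.

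In that list the genes that rose in mutant males included keratins of simple epithelia (*Krt7*, *Krt8* and *Krt18*), the factors *Tfap2c*, *Gata2*, *Gata3*, *Tead4*, *Ascl2*, *Dlx3* and *Esx1*, the ligands *Wnt6* and *Wnt7b*, the receptor *Fgfr2*, the placental gene *Plac1* and *Esrrb*, and *Gcm1*, a factor of labyrinth trophoblast, fell. By the rule of largest change the named genes were *Gata2*, from 9.35 ± 3.22 to 176 ± 72.8 normalised counts (log2 difference 4.04 ± 0.42 SE, limma adjusted p = 0.000934), the homeobox gene *Esx1*, from 14.3 ± 4.32 to 289 ± 197 (3.93 ± 0.59, adjusted p = 0.00531), and *Plac1*, from 7.50 ± 2.69 to 88.3 ± 37.8 (3.33 ± 0.46, adjusted p = 0.00365). *Esrrb* is also a naive marker and *Gata2* a blood gene, and naive and fibroblast marker sums were higher in the same libraries, as given above. The other 18 genes of the list were not called in males. Among these, *Eomes* overlapped (185 ± 8.84 to 199 ± 91.9), as did *Elf5*, *Tpbpa* and *Prl2c2* at low levels. *Tfap2b*, *Grhl2* and *Prl3d1* were lower in every mKO library than in every mWT library, and *Bmp8b* was higher. Single libraries moved the count of the list from 16 to between 9 and 23, with 9 called without mWT C or mKO C, 10 without mWT A and 11 without mKO B. Without both mWT A and C, which leaves 1 control, the median log2 difference of the list was 0.94. In that setting the medians of the lists described below were 0.20 (BMP), -0.05 (posterior axis and Wnt), 0.21 (mesoderm) and 0.21 (blood and endothelium). With all libraries they were 0.15, 0.18, -0.16 and -0.10. In females the list of amnion, surface ectoderm and trophoblast genes gave 9 genes higher and 9 lower of 33. *Dlx3* fell from 106 ± 9.50 to 8.58 ± 2.96 (log2 difference -3.53 ± 0.25, limma adjusted p = 2.02e-09), *Igfbp3* fell from 1817 ± 148 to 290 ± 24.1 (-2.65 ± 0.07, adjusted p = 5.14e-15), and *Esrrb*, 1 of the 8 naive markers that were higher in fKO, rose from 237 ± 3.80 to 981 ± 42.5 (2.05 ± 0.07, adjusted p = 3.31e-14).

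**Figure D4:**
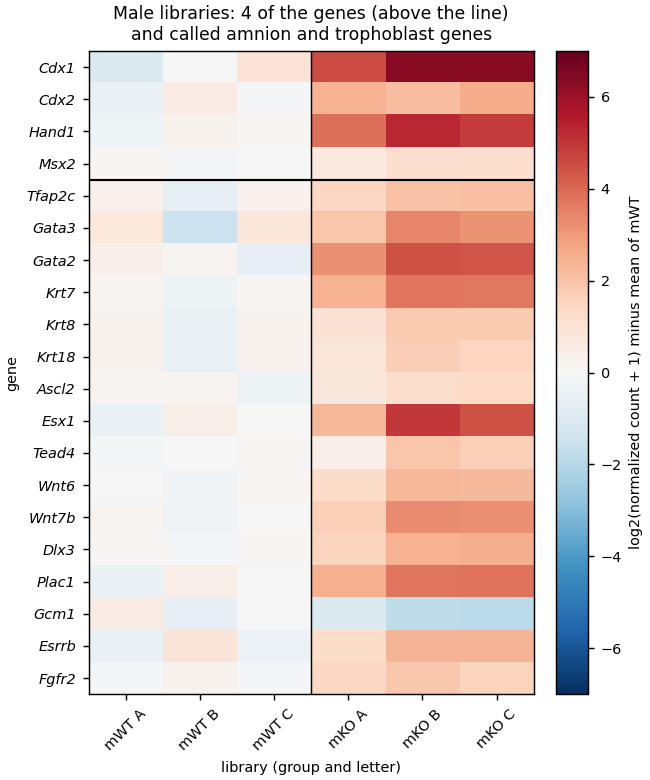
Log2(normalised count + 1) minus the mean of the 3 mWT libraries, on a colour scale from -7 to 7, in the 6 male libraries for *Cdx1*, *Cdx2*, *Hand1* and *Msx2* (above the line) and for the 16 called amnion, surface ectoderm and trophoblast genes. All 15 genes that rose are higher in mKO B and C than in mKO A, and *Gcm1* is the row that fell.

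In the BMP list of ligands, receptors, SMADs, targets and antagonists, 3 genes rose and 1 fell of 32 in males, with a median of 0.15. The direct target genes *Id3*, from 25.5 ± 2.97 to 133 ± 55.3 normalised counts (log2 difference 2.27 ± 0.31, limma adjusted p = 0.00371), and *Id1*, from 84.3 ± 19.1 to 180 ± 7.39 (1.11 ± 0.20, adjusted p = 0.0130), rose, and the antagonist *Fst* fell from 126 ± 8.87 to 34.3 ± 9.72 (-1.88 ± 0.26, adjusted p = 0.00365). In females 10 rose and 9 fell of 32, with a median of -0.03. The extracellular regulators *Nog*, *Fst* and *Bmper* rose most by limma. *Nog* went from 35.6 ± 8.41 to 138 ± 20.4 (limma adjusted p = 8.67e-08). *Fst* went from 71.0 ± 9.29 to 328 ± 12 (limma adjusted p = 1.65e-11). *Bmper* went from 6.69 ± 3.87 to 262 ± 20.7 (limma adjusted p = 2.35e-10). Another regulator, *Twsg1*, fell (log2 difference -0.51), and *Chrd*, *Grem1* and *Dand5* were not called. Ligands also went both ways. *Bmp2* (log2 difference 1.76) and *Bmp6* (1.63) were called higher and *Bmp7* (-0.49) lower, while *Bmp4* overlapped between fWT and fKO. The male count lay between 2 and 6 with single libraries left out, with 2 without mWT A, mKO B or mKO C and 6 without mKO A.

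In the list of posterior axis and Wnt genes, 15 genes fell and 5 rose of 30 in females, with a median of -0.84 against 0.0037 over all genes. *Hoxb1*, an anterior Hox gene of the primitive streak, fell from 35.5 ± 4.96 to 1.18 ± 1.27 normalised counts (log2 difference -4.24 ± 0.44, limma adjusted p = 2.13e-07), and *Fgf17* fell from 240 ± 15.2 to 18.4 ± 6.65 (-3.69 ± 0.21, adjusted p = 7.39e-11). *Cyp26a1*, which degrades retinoic acid, rose from 37.7 ± 2.36 to 496 ± 36.2 (3.68 ± 0.11, adjusted p = 1.06e-14). In males 2 rose and 2 fell of 30. The Wnt inhibitor *Notum* rose from 4.72 ± 3.99 to 24.6 ± 2.65 (2.37 ± 0.55, limma adjusted p = 0.0333) and *Hoxb9* from 15.2 ± 10.5 to 47.5 ± 6.76 (1.75 ± 0.46, adjusted p = 0.0473), and the Notch ligand *Dll1* fell from 142 ± 15.3 to 67.2 ± 8.34 (-1.07 ± 0.20, adjusted p = 0.0139). Of these 30 genes 8 were called without mKO A and 1 without mWT A, mWT C, mKO B or mKO C.

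In the list of lateral, cardiac and extraembryonic mesoderm genes, 2 rose and 2 fell of 35 in males, with a median of -0.16, the same as over all genes. *Nkx2-5*, a cardiac homeobox gene, rose from 4.31 ± 3.20 to 18.8 ± 3.03 normalised counts (log2 difference 2.05 ± 0.54, limma adjusted p = 0.0498), *Pdgfra* fell from 279 ± 26.0 to 87.1 ± 43.9 (-1.81 ± 0.35, adjusted p = 0.0161) and the atrial light chain gene *Myl7* fell from 55.8 ± 30.5 to 12 ± 0.549 (-1.95 ± 0.48, adjusted p = 0.0391). *Myl7* was at 82.8 and 61.8 in mWT A and C but at 22.7 in mWT B, against 11.4 to 12.4 in mKO. In females 7 rose and 7 fell of 35, and beside *Bmper*, which this list shares with the BMP list, *Pdgfra* (from 31.4 ± 4.75 to 553 ± 29.0, limma adjusted p = 9.88e-15) and *Gata6* (from 35.4 ± 3.78 to 619 ± 55.4, adjusted p = 4.81e-15) rose most. *Gata6* and *Gata4* are also among the endoderm markers, all of which were higher in fKO. In males 10 of the 35 were called without mKO A, 2 without mKO B and 1 without mWT A or mWT C.

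In the list of blood and endothelial genes, the lineages in which *Kdr* acts, 13 rose and 6 fell of 30 in females, with a median of 0.28. The endothelial adhesion gene *Pecam1* rose from 100 ± 13.6 to 486 ± 28.4 normalised counts (log2 difference 2.27 ± 0.10, limma adjusted p = 3.12e-12), the angiopoietin receptor gene *Tek* from 14.3 ± 2.88 to 101 ± 10.6 (2.75 ± 0.21, adjusted p = 5.57e-09), and *Sox7*, which is an endoderm marker as well, from 27.2 ± 7.31 to 267 ± 19.7 (3.27 ± 0.17, adjusted p = 2.08e-11). In males 3 rose and 2 fell of 30. Beside *Gata2*, *Runx1* rose from 42.5 ± 6.56 to 105 ± 34.2 (1.25 ± 0.30, limma adjusted p = 0.0369), and *Tek* fell from 83.6 ± 7.91 to 25.6 ± 4.47 (-1.68 ± 0.27, adjusted p = 0.00758). *Tek* thus changed in opposite directions in the 2 sexes, and its difference between them passed the interaction test (limma adjusted p = 8.29e-07). In males 10 of the 30 were called without mKO A, 8 without mWT B, 3 without mWT A, mKO B or mKO C and 2 without mWT C.

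**Figure D5:**
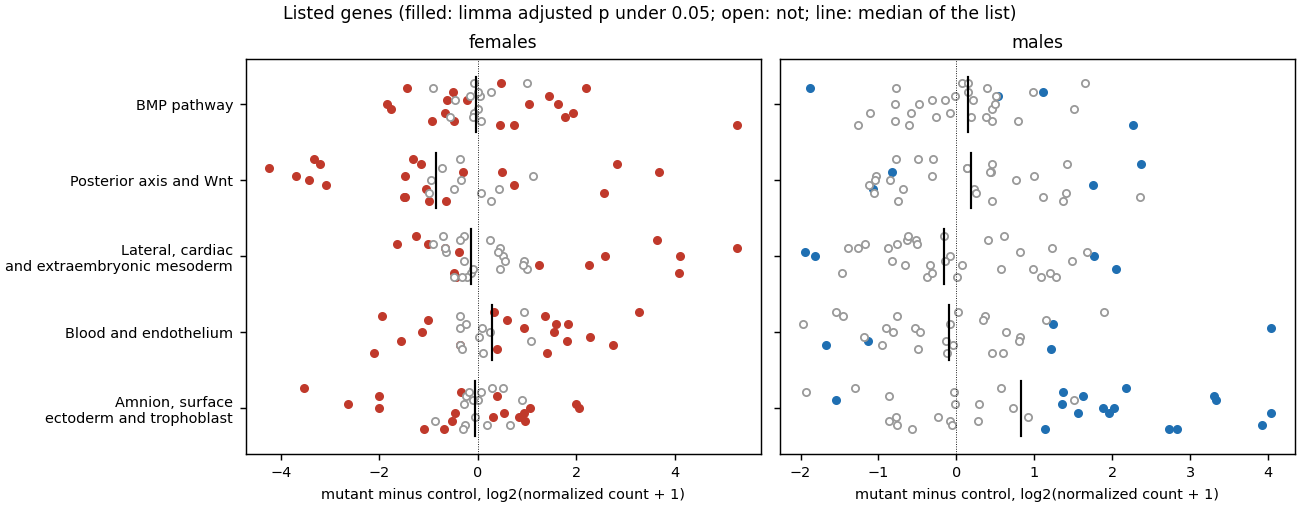
Difference of mutant minus control on the log2(normalised count + 1) scale for each listed gene in females and in males, with filled points for an adjusted p under 0.05 (limma) and a vertical line at the median of each list. In males the amnion, surface ectoderm and trophoblast list has 15 genes called higher and a median of 0.82, and the horizontal axes of the 2 panels differ in range.

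Of the 158 listed genes, 63 differed between the sexes in their change (limma, interaction of sex and genotype over the 12 libraries, adjusted p under 0.05), and 4675 of 22014 genes did so overall. The count of listed genes was 50 to 70 with single libraries left out and 52 without mWT A and C.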

How the data were processed

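RNA-Seq libraries of 12 EpiLC samples, 3 per genotype, were depleted of ribosomal RNA, prepared strand-specifically and sequenced from 1 end (50 bp). The authors mapped reads to mm9 (TopHat2 2.1.0 and Bowtie2 2.2.6.0, per the submitters' processing notes) allowing 1 mismatch and keeping reads with a unique position. The gene annotation and the strand setting of the counting are not given in the sources used here. The signal columns that the authors deposited, in 1 table per sex of 22911 genes, are mean normalised counts of each group, that is, reads divided by DESeq size factors and averaged over 3 libraries. The tables also hold fold changes and p-values of the authors' own comparisons, which were not used.

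Since a mean averages 3 whole read numbers after scaling, those numbers were solved from it for each gene. Below a limit of 10000 for the mean no gene had more or less than 1 solution, so 22808 genes were resolved in all 12 libraries, and 51 to 77 genes per group lay above that limit. The solver and the test below were tested on simulated data. No simulated library stood apart as mWT B and mKO A do, so the simulation does not vouch for the male calls. Recovered libraries carry no replicate numbers. Between 5516216 and 11092731 reads per library stand behind the values, and intervals cover counting error only, since no molecular identifiers are described.

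For each sex, log2(normalised count + 1) was modelled with limma 3.58.1 in R 4.3.3, using an intensity trend, over genes with at least 1 read in the 6 libraries, with Benjamini-Hochberg adjustment and a threshold of 0.05. The difference between the sexes was tested as an interaction over the 12 libraries. Fold changes on this scale understate changes of genes with few reads. Tested alternatives were a pseudocount of 0.1, limma voom, a minimum mean of 10, scaling to total reads, leaving out each library in turn, and, chosen after seeing the data, leaving out both mWT A and C, and leaving out libraries in the interaction. The 10 genes and the 5 lists were chosen with earlier results of these data known, and the 10 genes were not tested. Named from each list and sex were the up to 3 called genes with the largest change and a mean of at least 10, besides *Kdm5c*, and the 2 genes most like each member with that mean by Pearson r. Genes were placed with a gene annotation of mm9, and 20365 had an exon length. The other tools were scipy 1.17.1, numpy 2.4.6, numba 0.67.0, matplotlib 3.10.9 and pandas 2.3.3 under Python 3.11.15.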

Additional observations from a re-analysis of the deposited data

Results flagged for a closer look

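For 19 of the 25 listed genes named above, the change in mutant males differed from that in mutant females (interaction of sex and genotype, limma, adjusted p under 0.05). The other 6 did not pass. Over all genes, 4675 of 22014 passed. The 25 genes were named for a large change in 1 sex in these same libraries, which favours a pass. All 19 kept their sign in each interaction fit with 1 library left out and without both mWT A and C, and 15 of them passed without A and C, the exceptions being *Cyp26a1*, *Hoxb1*, *Myl7* and *Plac1*. Male change minus female change is given on the log2 scale. Among BMP genes it was -2.52 for *Nog*, -4.08 for *Fst*, -6.52 for *Bmper*, 1.10 for *Id1* and 1.83 for *Id3*. *Fst* rose in mutant females and fell in mutant males.

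Among posterior axis and Wnt genes the difference was 2.67 for *Fgf17*, -3.24 for *Cyp26a1* and 4.38 for *Hoxb1*. Among mesoderm genes it was -5.56 for *Gata6*, -5.91 for *Pdgfra* and -2.35 for *Myl7*, and *Pdgfra* rose in females and fell in males. Among blood and endothelial genes it was -1.46 for *Pecam1*, -4.43 for *Tek*, -4.82 for *Sox7* and 3.11 for *Gata2*.

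Among amnion, surface ectoderm and trophoblast genes it was 5.71 for *Dlx3*, which fell in mutant females and rose in mutant males, 2.63 for *Igfbp3*, 4.18 for *Esx1* and 2.44 for *Plac1*. All 12 endoderm markers, *Gata6* and *Sox7* among them, were higher in fKO than in fWT, whereas in mKO 0 were higher and 3 lower than in mWT, *Gata6*, *Sox17* and *Sox7*. The part of these markers in the differences was not tested.

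For *Kdr* every fKO library was above every fWT library and every mKO library below every mWT library, and the male change minus the female change was -2.50 on the log2 scale. This difference was not tested, as *Kdr* is one of the 10 chosen genes. In males the separation rested on mWT B at 8.27 normalised counts against mKO B at 8.11. The male change was smaller without mWT A and C, as given above.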

How the results depend on the processing

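In females the calls of all genes and of the 5 lists stayed within a factor of 1.5 of the reported counts under every alternative run, and the 14 named genes kept their calls in all 140 recomputed values. In males the number of called genes was 1703 with all libraries and between 331 (without mWT C) and 4684 (without mWT B) with single libraries left out, with 4314 without mKO A, 595 without mKO B, 519 without mKO C and 412 without mWT A. The counts of called genes in males ran from 2 to 6 for the BMP list, 1 to 8 for posterior axis and Wnt, 1 to 10 for lateral, cardiac and extraembryonic mesoderm, 2 to 10 for blood and endothelium, and 9 to 23 for amnion, surface ectoderm and trophoblast. Limma voom called 2 genes of the mesoderm list in males. Without both mWT A and C, limma called 0 genes in all and 0 in each of the 5 lists, with 2799 of 19066 genes at an unadjusted p under 0.05 (8, 7, 4, 5 and 15 in the lists, in the order given). This leaves 1 control library, which is assumed to vary like the mutants, and voom was not run on it. The interaction of sex and genotype called 63 of 158 listed genes, and 50 to 70 with single libraries left out and 52 without mWT A and C, both added after seeing the data. For the male named genes, 100 of 154 recomputed values kept the call, 54 lost it, and none reversed.

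Of 190 recomputed differences of the 10 genes, 180 moved by less than 1 SD of the libraries. Leaving out 1 of 3 libraries cannot move a difference by 1 SD, so those fits could not count as moved. In such fits *Msx1* in males still went from -1.51 to -2.38 and *Cdx4* in males from 0.02 to -0.76. The 10 that moved more were those of *Cdx1*, *Cdx2*, *Hand2* and *Isl1* with another pseudocount or none, and of *Cdx2* (1.81), *Bmp4* (-0.55) and *Kdr* (-0.18) in males without mWT A and C. At the recovered depth *Cdx4*, *Hand2* and *Isl1* had at most 13 reads in a library, which limits them to large differences. No paired analysis was possible because the recovered libraries carry no replicate numbers.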
